A study of Mus musculus with 12 samples.

Results

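Rpb2 is the second-largest subunit of RNA polymerase II, the enzyme that makes mRNA, and its reads were summed here gene by gene in microglia that lack Cx3cr1 and in wild-type microglia. For each gene, all Rpb2 peaks that the deposited table names after it were added up in 2 ways: peaks whose centre lies within 1000 bp of the transcription start site (TSS) gave the promoter sum, and peaks farther away that are annotated as intron, exon, 3′ UTR or transcription termination site (TTS) gave the gene-body sum. Of the 10206 gene names in the Rpb2 table, 8350 had a promoter sum made from 10125 peaks, 3722 had a gene-body sum made from 11577 peaks, 2544 had both and 9528 had either. The remaining 5004 of the 26706 peaks, which lie between genes or upstream, entered neither sum.

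RNA polymerase II is recruited to a promoter, often halts shortly after it starts, and is then released into the gene body to copy the rest of the gene. Crosslinked polymerase pulled down with an antibody to a subunit therefore gives a tall peak at the start of most active genes and a lower, spread-out signal along the body, and the balance of these signals is commonly used to describe how much polymerase has been released. Cx3cr1 is the receptor for the chemokine fractalkine and, in the brain, is found mainly on microglia, the resident macrophages, where it restrains inflammatory output.

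The question was whether polymerase on genes differs between the genotypes. Mice of 2 months on the C57BL/6J background were compared: WT mice carry normal copies of Cx3cr1, and in KO mice the gene for eGFP disrupts both copies (Cx3cr1eGFP/eGFP), a germline change present in every cell. Each library was made from sorted microglia pooled from 3 animals of 1 sex, and each genotype has 2 Rpb2 libraries, labelled female and male (n = 2 per genotype, 4 libraries in all). H3K27ac libraries of the same design were read only at the leading promoters, and the input libraries were not used.

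The libraries held 11662185 and 13653287 reads for WT and 44332626 and 16528108 for KO, in the order labelled female, then male, which is kept for every list of values below. Between 11.2% and 15.1% of these lay in peaks. At the 3 peaks on the Y chromosome the reads were 136, 214, 0 and 266, so the library labelled WT female holds Y-linked reads, which goes against its label. It is called by its label throughout and its genotype label was kept. Both WT libraries but only KO male hold Y-linked reads, so sex may be unbalanced between the genotypes and cannot be fully told apart from genotype. Results with the sex label as a block follow the labels. Levels are given as CPM, which here means counts scaled to 1000000 promoter reads (or gene-body reads) of a library after edgeR's TMM scaling. Differences are given as log2 KO/WT, the fitted log2 fold change, which is positive where KO is higher.

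The share of peak reads that fell in gene bodies was higher in KO than in WT. It was 26.4% and 25.7% in the WT libraries and 28.5% and 28.9% in the KO libraries. The means were 26.1% ± 0.497 for WT and 28.7% ± 0.257 for KO (SD, n = 2), a difference of 2.62 percentage points, and the genotypes did not overlap. The exact two-sided permutation test gave p = 0.333, the smallest value that 2 libraries against 2 can give. The promoter share was 58.4% and 59.5% in WT against 56.0% and 55.7% in KO, a difference of −3.10 percentage points.

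Most of this difference lay in introns and in peaks that were called from the KO libraries alone. Introns took 19.9% and 19.3% of peak reads in WT against 21.5% and 22% in KO. Exons took 1.79%, 1.83%, 1.91% and 1.92%, and the stretch around the TTS 3.05%, 2.95%, 3.30% and 3.19%, so the KO libraries were the higher ones in each class by small amounts. The table joins peaks found in KO with peaks found in WT, and marks each by the list it came from. The 7558 gene-body peaks of the KO list alone held 10.6% and 9.81% of peak reads in WT but 14.9% and 15.6% in KO, whereas the 2011 gene-body peaks of both lists held 10.4%, 10.6%, 10.2% and 10.0%. Counted over peaks of both lists only, the gene-body share differed by 0.475 percentage points.

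**Figure D1:**
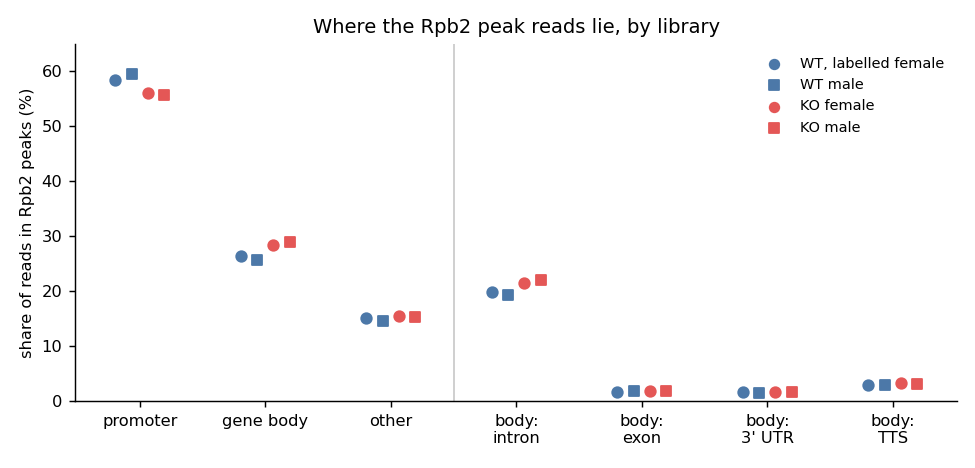
Share of the reads in Rpb2 peaks (%, vertical axis) that lies in promoter, gene-body and other peaks, and, right of the line, in each annotation class of gene-body peaks; each point is 1 library, blue for WT and red for KO, circles for the libraries labelled female and squares for male. The KO gene-body points sit at 28.5% and 28.9%, above the WT points at 26.4% and 25.7%.

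At promoters, no gene passed the test between the genotypes. The edgeR quasi-likelihood test, adjusted by Benjamini-Hochberg, called 0 of 8350 genes (0% at an adjusted p under 0.05), with a smallest adjusted p of 0.196. Without adjustment, 380 genes were higher in KO (4.55% of those tested) and 480 lower (5.75%) at p under 0.05. The median log2 fold change was 0.03, with an interquartile range of −0.31 to 0.34. DESeq2 called 16 genes, all of them lower in KO. The edgeR count rose more with a WT library left out than with a KO library left out. The spread then comes from the KO libraries alone, and the lone WT library is assumed to vary like them. In pooled cells, fewer cells with polymerase on a gene and less polymerase per cell cannot be told apart.

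The WT libraries differed from each other nearly as much as libraries of different genotypes did, while the KO libraries were closer to each other. Over the 7839 genes with at least 10 promoter reads in every library, the median absolute log2 ratio was 0.383 between the WT libraries and 0.333 between the KO libraries, against 0.388 to 0.409 for pairs of different genotype. For gene bodies the values were 0.392 and 0.307 against 0.401 to 0.423, over 2869 genes. Libraries that did not overlap between the genotypes were common: 21.5% of promoter sums lay above WT in both KO libraries and 19.5% lay below.

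Auh, Klhl42 and Donson were among the promoters with the lowest p on the side lower in KO, all below the threshold for a call in edgeR (adjusted p = 0.196). Auh encodes a mitochondrial hydratase of leucine breakdown that also binds AU-rich RNA. Its single promoter peak, at chr13:52929463-52929704 (mm10), held 35 and 84 reads in the WT libraries against 9 and 10 in the KO libraries. These are 68.2 ± 31.5 CPM in WT and 5.08 ± 3.01 CPM in KO (SD, n = 2), with log2 KO/WT at −3.82 (SE 0.73). The KO libraries are both lower although KO female is the deepest library, and the WT libraries differ from each other as well.

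Klhl42, an adaptor of a Cul3 ubiquitin ligase, had 113 and 146 promoter reads in the WT libraries against 123 and 60 in the KO libraries, in a peak in its 5′ UTR. After scaling these are 148, 157, 40.4 and 43.3 CPM, tight within each genotype, with log2 KO/WT at −1.87 (SE 0.36). Donson, a protein of the replication fork, had 188 and 143 CPM against 52.6 and 36.8 CPM (−1.87, SE 0.37). For these genes the genotypes did not overlap, and DESeq2 gave adjusted p of 0.00446 for Auh, 0.00742 for Klhl42 and 0.00793 for Donson.

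Of the promoters that DESeq2 called, 12 more, named here after their values were seen, were Acsl3, Gm9958, Irf8, Lifr, Mtmr12, Nt5c3b, Ppp1r13b, Sbf1, Siah2, Tab2, Tmem8b and Zfp326. Irf8 is the one with a central place in microglia, as a transcription factor that macrophages need to form. Its promoter peaks held 627 and 720 CPM in WT against 435 and 352 CPM in KO (673 ± 65.9 against 393 ± 58.8, SD, n = 2). Log2 KO/WT was −0.77 (SE 0.18, edgeR adjusted p = 0.196, DESeq2 adjusted p = 0.0276). The gene-body sum of Irf8, over 14 peaks, was 1579, 1467, 1561 and 1558 CPM, with log2 KO/WT at 0.04 (SE 0.13), and there the genotypes overlapped.

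Among promoters higher in KO, those with the lowest p were Mtor, Spag4, Aup1 and Nccrp1 (edgeR adjusted p = 0.196 each), and each rests on a peak of the KO list with almost no WT reads. Mtor, the growth kinase at the core of the mTOR complexes, had 0 and 1 reads in the WT libraries against 91 and 56 in the KO libraries. Its ratio of KO to WT CPM was 56.2, with a 95% counting interval from 9.92 to 2233. Aup1, a protein of the endoplasmic reticulum and lipid droplets, had 0, 1, 65 and 48 reads, a ratio of 43.2 (counting interval 7.59 to 1720).

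Spag4, a SUN-domain protein of the nuclear envelope, had 0 and 0 reads in the WT libraries against 54 and 44 in the KO libraries, which is at least 13.9-fold higher against a floor of 3 reads over the WT libraries together. Nccrp1 had 0, 0, 53 and 38 reads, at least 12.6-fold higher, in a peak centred at −527 bp from the start. Intervals and floors cover counting error only, since reads copied by PCR are not independent molecules. Of the peaks of the KO list alone, 951 had 0 reads and 315 had 1 read in the library labelled WT female. In WT male these were 820 and 242. Peaks of the WT list alone gave 58 and 11 in KO female and 143 and 24 in KO male. With 0 reads more common than 1 read, a floor of 3 reads may not bound the true difference, here or for the other sums given as at least some fold. Spag4 and Nccrp1 were the 2 promoter sums at 0 in both WT libraries.

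Tnf, the inflammatory cytokine, had the same direction at a far higher level. Its promoter peak at chr17:35201767-35202080 held 134 and 159 reads in the WT libraries against 1159 and 435 in the KO libraries, which are 176, 171, 381 and 314 CPM. Means were 173 ± 3.24 and 347 ± 47.7 CPM (SD, n = 2), with log2 KO/WT at 1.0 (SE 0.23) with an edgeR adjusted p of 0.196. The KO libraries both lie above the WT libraries and the sum does not rest on a near-empty peak. The edgeR adjusted p was 0.0342 with the sex label as a block but 0.106 with edgeR's newer method, and DESeq2 gave an adjusted p of 0.0673. With a library left out, log2 KO/WT ran from 0.85 (without KO female) to 1.14 (without KO male).

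**Figure D2:**
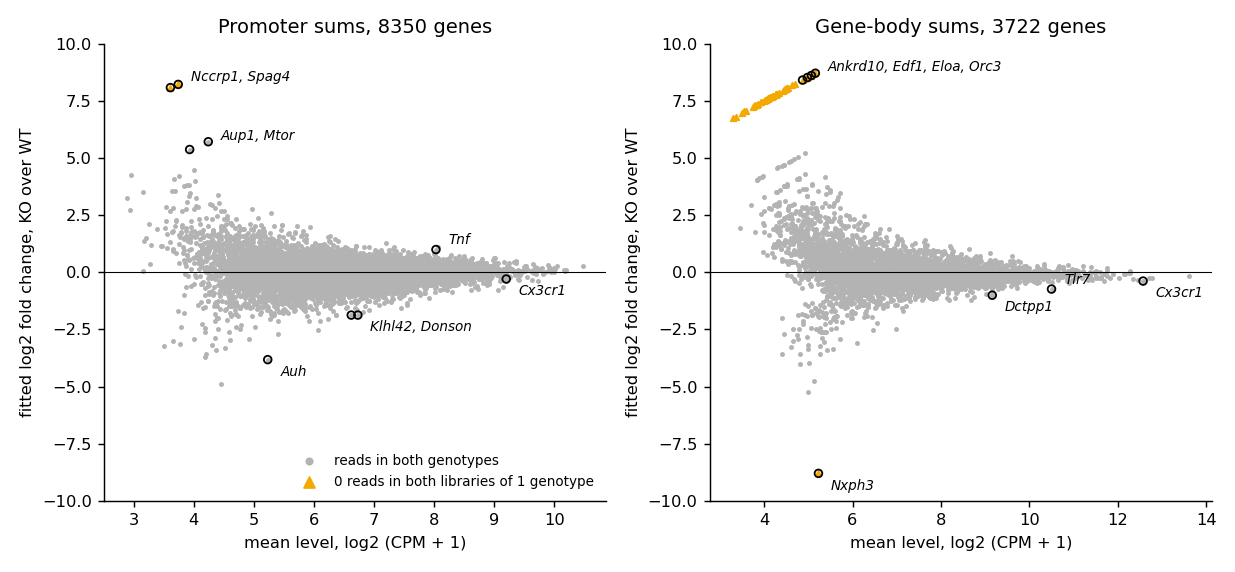
Fitted log2 fold change, KO over WT (vertical axis), against the mean level over 4 libraries as log2 of CPM + 1 (horizontal axis), for the 8350 promoter sums (left) and 3722 gene-body sums (right); each point is a gene, with orange triangles for genes at 0 reads in both libraries of 1 genotype, whose fitted value is no measure of size. Auh, Klhl42 and Donson lie low on the promoter side, Tnf lies above 0 at a high level, and the orange genes on the gene-body side are nearly all on the upper edge.

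To show the start of the genes named above, 30 bases of RefSeq sequence (GRCm38.p6, bases 40 to 11 before the annotated start, gene strand) are printed for those in the sequence table used here, with any match to TATAA or GGGCGG, on either strand, in capitals.
Auh, chr13:52929688-52929717, minus strand: gacgcctgtcgtgtgcgtgcgcggctccaa
Donson, chr16:91688739-91688768, minus strand: ggccggggcgcgcgggaagccccggcaggg
Mtor, chr4:148448542-148448571, plus strand: gctgattggttgtagcgcttacgagcccgc
Spag4, chr2:156065173-156065202, plus strand: cagtgacgtcacgggcgctctgtgacgcgg
Tnf, chr17:35202018-35202047, minus strand: tccccaagggcTATAAaggcggccgtctgc
Cx3cr1, chr9:120068307-120068336, minus strand: cagatgctattggctaacttcgaaaataaa
Of these, Tnf holds TATAA, the core of a TATA box, and the rest hold neither motif in this window. Over all 32851 RefSeq promoters, 4.75% hold TATAA and 9.54% hold GGGCGG in the same 30 bases. A match describes the letters and not a bound site.

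In gene bodies, no gene passed the test either. edgeR called 0 of 3722 genes (0%), with a smallest adjusted p of 0.166, while 291 genes were higher in KO (7.82%) and 236 lower (6.34%) at an unadjusted p under 0.05. The median log2 fold change was 0.03, with an interquartile range of −0.33 to 0.54. DESeq2 called 201 genes, 125 higher and 76 lower in KO. Of its 125 higher genes, 46 had 0 reads in both WT libraries. The edgeR count rose with a WT library left out, where the spread comes from the KO libraries alone, and did not rise with a KO library left out. Gene-body sums above WT in both KO libraries made up 26.0% of those tested, and sums below made up 21.7%.

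Which list a peak came from moved with the direction of the gene-body sums. The 1761 genes whose gene-body peaks were all from the KO list had a median log2 fold change of 0.52, the 250 genes with peaks from the WT list alone had −1.25, and the 405 genes with peaks of both lists alone had −0.32. At promoters the same medians were 0.31 (2533 genes), −0.76 (499 genes) and −0.04 (4312 genes). Peaks were found in libraries of unequal depth, and KO female had the most reads. Of the 14148 peaks of the KO list alone, 202 had 0 reads in both WT libraries and 154 of these were gene-body peaks, whereas 10 of the 3665 peaks of the WT list alone had 0 reads in both KO libraries. Ordered by reads, the 372 lowest gene-body sums had a median log2 KO/WT of 0.99 and the 373 highest −0.06. The part of peak calling in these directions was not tested.

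The gene-body sums with the lowest p among those higher in KO were all single peaks with 0 reads in both WT libraries, and their edgeR adjusted p was 0.166. Orc3, a subunit of the origin recognition complex, had 95 and 58 KO reads in an intron peak at chr4:34583511-34583768, at least 16.9-fold higher than the floor. Summed by the transcript that peaks lie in, a way of summing added after the data were seen, 9 peaks of Orc3 held 89 and 146 reads in WT against 776 and 405 in KO, and log2 KO/WT was 0.71 (SE 0.26, adjusted p = 0.227). Its promoter sum was 82.6 and 79.7 CPM in WT against 130 and 88.0 CPM in KO, with log2 KO/WT at 0.43 (SE 0.37). Eloa, the elongin A subunit that raises the speed of the polymerase, had 52 and 72 KO reads (at least 15.9-fold higher), and Ankrd10 had 69 and 51 (at least 13.8-fold higher). With peaks near the TSS counted in as well, the Eloa difference turned to −0.20, and with its 2 peaks summed by transcript it was 1.41 (SE 0.85, adjusted p = 0.466), from 28, 1, 127 and 106 reads. Ankrd10 was at 0 in both WT libraries by transcript too.

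Edf1, a transcriptional coactivator, had 67 and 59 KO reads (at least 14.9-fold higher), but the peak lies in an exon of Mamdc4, a neighbouring gene. Peaks in the table carry the name of the nearest TSS, not of the transcript they lie in: of 11558 gene-body peaks with a known transcript, 7619 (65.9%) lay in the gene they are named after and 3939 in another. Over the whole table, 51 gene-body sums were at 0 in both WT libraries and 1 was at 0 in both KO libraries.

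That 1 gene was Nxph3, a neurexophilin, with 28 and 25 reads in the WT libraries against 0 and 0 in the KO libraries. The sum was at least 56.3-fold lower in KO against the floor, but its only peak lies at the TTS of Spop, an adaptor of a Cul3 ubiquitin ligase. Tlr7 and Dctpp1, also among the gene-body sums with the lowest p on the lower side, were well covered in every library (edgeR adjusted p = 0.166 each). In both of them the KO libraries lay below both WT libraries.

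Tlr7, the endosomal receptor for single-stranded RNA, lies on the X chromosome and had 586, 741, 1749 and 786 gene-body reads over 17 peaks. These are 1732, 1887, 1116 and 1061 CPM, means of 1810 ± 109 and 1089 ± 38.6 CPM (SD, n = 2), and log2 KO/WT at −0.73 (SE 0.14). Its promoter sum was 153, 119, 122 and 152 CPM, with log2 KO/WT at 0.01 (SE 0.32), with overlapping genotypes. Along the gene the WT libraries were the higher ones by the widest gap at the peak 11609 bp from the start, with 58.0 and 74.0 peak CPM (counts scaled to all reads in peaks) against 33.1 and 32.8, and the KO libraries were the higher ones at a low peak 5477 bp from the start, with 1.53 and 1.93 against 8.31 and 19.6. With peaks of both lists only, the gene-body log2 fold change was −0.45, and with scaling by total reads it was −0.27.

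Dctpp1, which hydrolyses dCTP in the nucleotide pool, had 772 and 751 CPM in WT against 397 and 365 CPM in KO (log2 KO/WT −1.0, SE 0.20), with a promoter sum that overlapped between the genotypes (0.33, SE 0.30). Of its 3 gene-body peaks, 2 lie in exons of Zfp771, a zinc finger gene next to it. With only the peak in Dctpp1 itself the difference was −0.71.

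**Figure D3:**
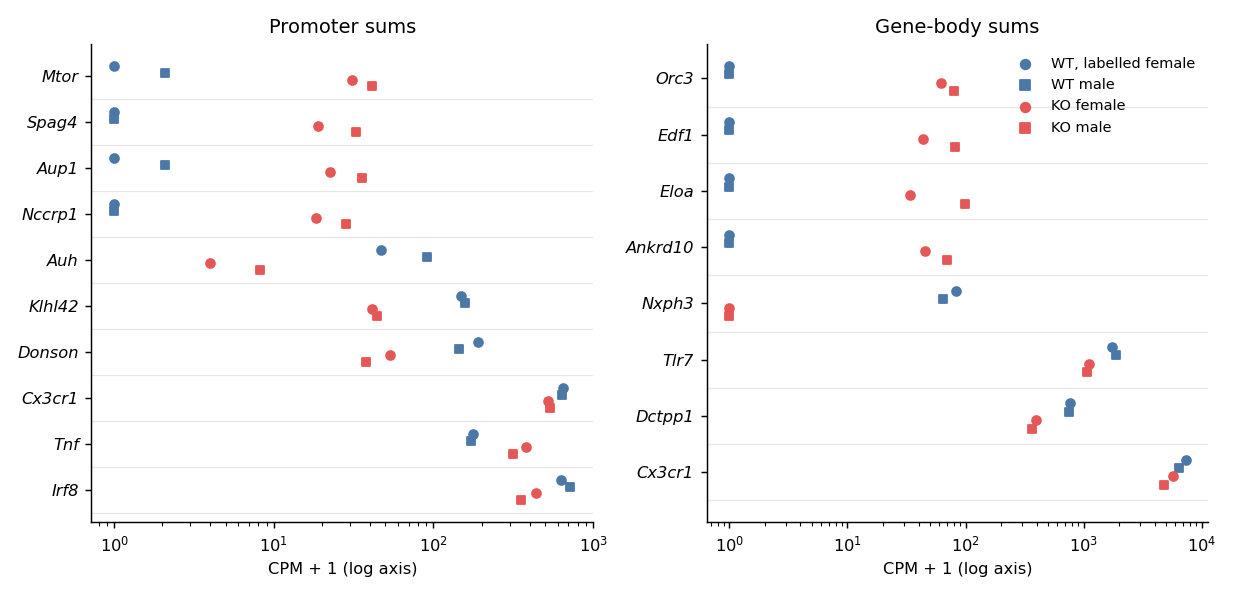
CPM + 1 on a log axis for the promoter sums (left) and gene-body sums (right) of genes among those with the lowest p in each direction and of Cx3cr1, Tnf and Irf8; each point is 1 library, blue for WT and red for KO, circles for the libraries labelled female and squares for male. Points at 1 are sums of 0 reads, seen in WT for Spag4, Nccrp1, Orc3, Edf1, Eloa and Ankrd10 and in KO for Nxph3.

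Gene-body reads were also set against promoter reads of the same gene, which asks whether polymerase lies farther along genes in 1 genotype. No gene passed: edgeR called 0 of 2544 genes (0%) with a smallest adjusted p of 0.114, and 231 (9.08%) leaned to the gene body in KO and 137 (5.39%) to the promoter at an unadjusted p under 0.05. The median log2 difference was 0.06. DESeq2 called 69 genes, 53 toward the gene body. Here too the edgeR count rose with a WT library left out, where the spread comes from the KO libraries alone, and not with a KO library left out. Per kb of peak, the median gene-body level was lower than the promoter level in every library, with a log2 ratio of −1.65 and −1.82 in WT and −1.52 and −1.44 in KO over 1913 genes.

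The genes with the lowest p for a lean to the gene body in KO were Edf1, Mir5129, Prrc2c and Eloa (edgeR adjusted p = 0.114 each). Prrc2c, an RNA-binding protein, had 0, 0, 66 and 33 gene-body reads and 99, 115, 225 and 87 promoter reads. Mir5129 holds the peaks of Zeb2, a transcription factor of microglial identity, since all 23 of its gene-body peaks lie in that gene. Its gene-body sum was 967, 935, 1013 and 1164 CPM, and its own promoter peak held 17, 18, 10 and 2 reads, so the log2 difference of 3.14 (SE 0.54) rests on a few promoter reads. Summed by the transcript they lie in, the 34 gene-body peaks of Zeb2 gave log2 KO/WT at 0.15 (SE 0.13).

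Among the genes with the lowest p for a lean to the promoter in KO were Fam117b, Kdm6b and Mgat4a (edgeR adjusted p = 0.114 each). Mgat4a, an enzyme that branches N-glycans, had 199, 198, 975 and 525 promoter reads but 67, 90, 81 and 17 gene-body reads, a log2 difference of −3.07 (SE 0.56). Its gene-body reads per promoter read were 0.337 and 0.455 in WT against 0.0831 and 0.0324 in KO. These are 3 peaks of the WT list, however, and summed by transcript the 20 peaks in Mgat4a held 289, 403, 1472 and 774 gene-body reads, which brought the log2 difference to −0.50 (adjusted p = 0.477). Kdm6b, the demethylase of H3K27, rested on a promoter peak with 2, 0, 51 and 38 reads. Fam117b had 19, 22, 5 and 6 gene-body reads beside promoter sums of 418, 386, 405 and 418 CPM.

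Irf8 leaned to the gene body in KO. Its gene-body reads per promoter read were 1.12 and 0.861 in WT against 1.85 and 2.36 in KO, a log2 difference of 0.84 (SE 0.25, edgeR adjusted p = 0.175), and the libraries did not overlap. The main promoter peak of Irf8, at chr8:120736284-120736572, held 343 and 399 peak CPM in WT against 206 and 172 in KO. Another promoter peak, at chr8:120738586-120738833, held 22.1 and 31.5 against 38.6 and 23.6, which overlap. Each lies 70 bp from its own annotated start. The gene-body distances below run from the start at the second of these peaks, which is downstream of the main one. The gene-body peaks, of which 3 are given here after their values were seen, did not share 1 direction: the peak 4207 bp from the start held 26.0 and 3.86 in WT against 59.8 and 84.9 in KO, the peak at 6638 bp held 71.0 and 22.5 against 16.6 and 26.4, and the peak at 9976 bp held 28.3 and 60.5 against 28.2 and 29.2.

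Cx3cr1 itself kept a promoter peak and gene-body peaks in the KO libraries. Its coding sequence lies in a single exon. The labels and the study's methods do not say which stretch eGFP replaces, and peaks outside that stretch can be read from the eGFP allele too. The sums are therefore no check of the knockout. The promoter sum was 650 and 642 CPM in WT against 521 and 534 CPM in KO (646 ± 6.32 against 527 ± 8.80, SD, n = 2), with log2 KO/WT at −0.29 (SE 0.16, edgeR adjusted p = 0.560). The gene-body sum over 18 peaks was 7319 and 6433 CPM in WT against 5764 and 4834 CPM in KO, with log2 KO/WT at −0.38 (SE 0.10, adjusted p = 0.166). With peaks of both lists only it was −0.05, and with scaling by total reads 0.08.

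Single Cx3cr1 peaks, picked here after their values were seen, differed in sign. In peak CPM, the peak in the coding exon at chr9:120051276-120051594 held 78.7 and 67.5 in WT against 122 and 106 in KO, and a 3′ UTR peak at chr9:120050039-120050278 held 57.3 and 43.7 against 114 and 117. The TTS peak at chr9:120048021-120048335 held 192 and 259 in WT against 114 and 97.3 in KO, and the intron peak 970 bp from the start held 97.0 and 86.2 against 26.4 and 46.9. The other 3′ UTR peaks did not follow the first of these, with 107 and 88.7 against 88.3 and 81.3 at chr9:120048870-120049103 and 155 and 116 against 131 and 105 at chr9:120049416-120049700. So the last exon held peaks of either direction. Within 10 Mb of Cx3cr1, 67 other genes had a promoter sum, of which 2 were higher and 4 lower at an unadjusted p under 0.05 (median log2 fold change −0.07), beside 4.55% and 5.75% of all promoters. A gene-body sum was found for 35, of which 6 were higher and 2 lower (median 0.13), beside 7.82% and 6.34% of all gene-body sums.

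**Figure D4:**
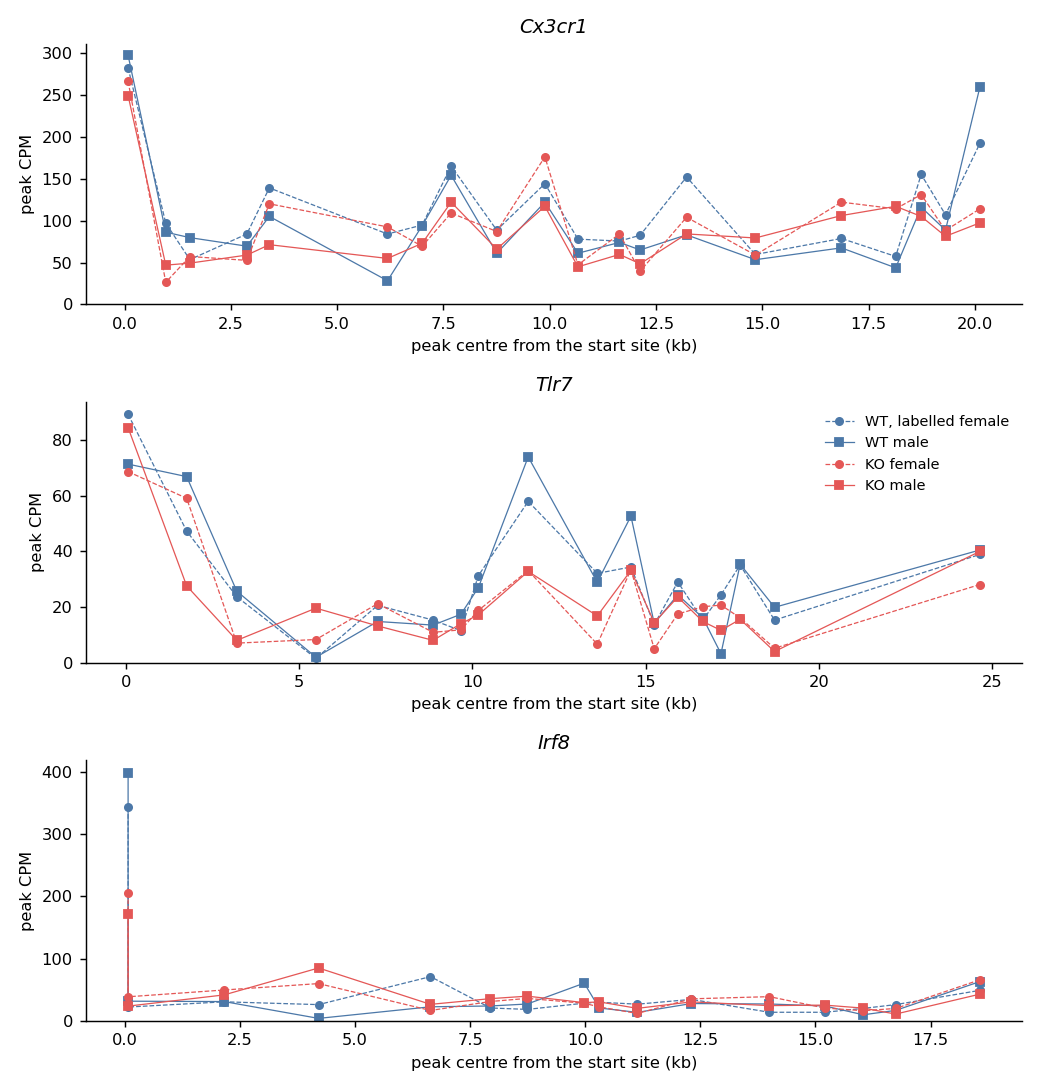
Peak CPM, counts scaled to 1000000 reads in peaks (vertical axis), at each promoter and gene-body Rpb2 peak of Cx3cr1, Tlr7 and Irf8, against the distance of the peak centre from the start site (kb, horizontal axis); blue is WT and red KO, circles with broken lines are the libraries labelled female and squares with full lines male, and lines only join peaks of 1 library. The last Cx3cr1 peak stands at 192 and 259 in WT against 114 and 97.3 in KO, and the main Irf8 promoter peak at 343 and 399 against 206 and 172. Distances are from the nearest annotated start, and Irf8 has more than 1, so its promoter peaks share the position of 70 bp.

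Homeostatic microglia genes, such as the purinergic receptors and surface proteins by which microglia are told from other macrophages, had mostly negative log2 fold changes in their gene bodies, but none passed the test. Of 28 listed genes, 27 had a gene-body sum, 23 of them below 0 and 4 above, with a median of −0.25, while 1786 of all 3722 genes were below 0 and their median was 0.03. At an unadjusted p under 0.05, 7 were lower and 0 higher, beside 6.34% and 7.82% of all genes. The 7, named after their values were seen, were Cst3 (−0.72), Fcrls (−0.58), Adora3 (−0.43), Cx3cr1 (−0.38), Golm1 (−0.33), Selplg (−0.25) and Slco2b1 (−0.24). Cst3 encodes the protease inhibitor cystatin C, with 857 and 698 CPM in WT against 413 and 531 CPM in KO. Summed by transcript, the median was −0.20. Over the 21 genes left with peaks of both lists only it was 0.06, and with scaling by total reads it was 0.22 beside 0.50 for all genes. A lean below 0 was not particular to this list. Of the 405 genes whose gene-body peaks were all of both lists, 77.8% were below 0 (median −0.32). Of the 373 gene-body sums with the most reads, 61.1% were below 0 (median −0.06).

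The promoters of the same list did not share that lean. Of 27 with a promoter sum, 2 were higher and 1 lower at an unadjusted p under 0.05, and the median was 0.07. Csf1r, the receptor for the growth factor that microglia live on, had 252 and 233 CPM at the promoter in WT against 293 and 410 CPM in KO (0.53, SE 0.23). Gpr34, a lysophospholipid receptor, had 168 and 255 against 329 and 283 CPM (0.53, SE 0.25), while Fcrls, an Fc receptor-like protein, had 194 and 180 against 114 and 124 CPM (−0.65, SE 0.29). Among members named after their values were seen, P2ry12 and Tmem119, much used as microglial markers, had promoter log2 fold changes of −0.05 (SE 0.26) and 0.07 (SE 0.19) and gene-body values of −0.34 (SE 0.17) and −0.34 (SE 0.20). The 7 gene-body peaks named after P2ry12 all lie in transcripts of Med12l, the gene around it.

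Myeloid transcription factors were split at promoters, 4 higher and 4 lower of 23 at an unadjusted p under 0.05 (4.55% and 5.75% of all genes), with a median of 0.03. Mef2a, a MADS-box factor, had 10 and 14 reads against 142 and 87 (1.94, SE 0.61). In gene bodies 0 were higher and 1 lower of 21, with a median of −0.10. Sall1, a factor that marks microglia among macrophages, had gene-body sums of 1676, 1808, 1601 and 1568 CPM (−0.14, SE 0.13).

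The lists below are given by their counts at an unadjusted p under 0.05, and most of the genes named from here on were chosen after their values were seen. As background for each of these counts, over all genes 4.55% of promoters were higher and 5.75% lower, and 7.82% of gene-body sums were higher and 6.34% lower. Of the cytokine and NF-kB list, 3 of 20 promoters were higher, Tnf among them, and 1 lower (median 0.13), and 2 of 14 gene-body sums were higher and 0 lower (median −0.01). Il1a, a cytokine of the interleukin-1 family, had promoter sums of 317, 236, 364 and 446 CPM (0.55, SE 0.22) and 1, 1, 99 and 27 gene-body reads, a ratio of 20.0 (counting interval 5.41 to 167), while its 3 peaks summed by transcript held 21, 41, 226 and 99 reads (log2 KO/WT 0.73, SE 0.50). Nfkb2, an NF-kB subunit, had 0, 0, 61 and 34 gene-body reads (at least 10.3-fold higher), in a peak that lies in Gbf1. Its promoter sums were 189 and 211 CPM in WT against 263 and 277 CPM in KO.

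Of the chemokine list, 1 of 10 promoters was higher and 0 lower (median 0.07, beside 4.55% and 5.75% of all promoters), and 1 of 7 gene-body sums was higher and 1 lower (beside 7.82% and 6.34%). The higher gene was Ccr1l1, a receptor related to Ccr1, with 0, 0, 55 and 39 reads (at least 10.7-fold higher). Of the immediate-early genes, which respond within minutes to stimulation or to cell handling, 3 of 26 promoters were higher and 0 lower (median 0.14), against the same 4.55% and 5.75%. Klf2, a zinc finger factor of quiescence, had 159, 232, 1078 and 594 promoter reads (209, 250, 354 and 428 CPM, log2 KO/WT 0.77, SE 0.22). Fos, by contrast, had 134, 122, 88.4 and 199 CPM, which overlap.

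Of the interferon list, 2 of 14 promoters were higher and 1 lower (median 0.17), and 1 of 4 gene-body sums was higher and 0 lower (median 1.59). With peaks of both lists only, 1 of these gene-body sums was left, at 0.12. For this list and the next lists of this paragraph the shares over all genes were 4.55% higher and 5.75% lower at promoters and 7.82% and 6.34% in gene bodies. Usp18, which dampens interferon signalling, had promoter sums of 43.3 and 39.8 CPM in WT against 115 and 102 CPM in KO (1.39, SE 0.40). Of the complement and Fc receptor list, 2 of 16 promoters were higher and 0 lower (median 0.09), and 2 of 12 gene-body sums were lower and 0 higher (median −0.11). Those were C1qb (2454 and 1941 against 1665 and 1508 CPM, −0.47) and C1qc (1679 and 1622 against 1353 and 1130 CPM, −0.41), the chains of C1q, the recognition molecule of complement. Genes of antigen presentation had 1 higher and 1 lower of 12 promoters (median 0.02) and 0 of 5 gene-body sums past that threshold (median 0.45).

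Of the disease-associated microglia genes, 2 of 15 promoters were higher and 0 lower, with a median of −0.14, and 2 of 9 gene-body sums were higher and 0 lower (median 0.33). The background is 4.55% and 5.75% for promoters and 7.82% and 6.34% for gene bodies, here and for the lysosomal genes. Ctsd, the lysosomal protease cathepsin D, had promoter sums of 393 and 412 CPM in WT against 589 and 638 CPM in KO (0.61, SE 0.17) but gene-body sums of 1386, 1559, 1188 and 1356 CPM (−0.21, SE 0.14). Trem2, the lipid receptor of these cells, had gene-body sums of 600, 677, 636 and 482 CPM. Of the lysosomal genes, 2 of 28 promoters were higher and 2 lower (median 0.08), and 3 of 22 gene-body sums were higher and 0 lower (median 0.15). Tfeb, the transcription factor of lysosome biogenesis, had 45, 123, 54 and 37 promoter reads (−2.13, SE 0.53) beside gene-body sums of 160, 283, 371 and 401 CPM (0.80, SE 0.32).

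Genes of mRNA stability, which include Auh, had 0 higher and 3 lower of 31 promoters, Auh, Ddx6 and Pan3, beside 4.55% and 5.75% of all promoters, although the median of the list was 0.24. Ddx6, an RNA helicase of decapping, had 219 and 248 CPM in WT against 126 and 146 CPM in KO (−0.79, SE 0.27). Zfp36, the protein tristetraprolin that binds AU-rich elements, had 601, 731, 734 and 839 CPM (0.24, SE 0.16). In gene bodies 0 of 8 were past the threshold, with a median of 0.11.

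Genes of the pausing and elongation machinery itself had 1 higher and 1 lower of 32 promoters (median 0.17, beside 4.55% and 5.75% of all promoters), and 3 higher and 0 lower of 10 gene-body sums, with a median of 1.08, beside 7.82% and 6.34% of all gene-body sums. The 3 included Hexim1, an inhibitor of the elongation kinase P-TEFb, and Cdk12, a kinase of the polymerase tail. Hexim1 had 79.8 and 48.4 CPM in WT against 231 and 149 CPM in KO (1.58, SE 0.49) and Cdk12 had 1, 0, 81 and 19 reads (ratio 31.7, counting interval 5.56 to 1263), or 1, 9, 110 and 35 summed by transcript (log2 KO/WT 2.14, SE 0.97). The gene-body peaks of both came from the KO list alone. With peaks of both lists only, 2 gene-body sums of this list were left, with a median of 0.05. Of the ribosomal protein genes, 69 of 76 had a promoter sum, with 2 higher, 1 lower and a median of 0.02, and 21 had a gene-body sum, with 1 higher, 0 lower and a median of 0.34, against the same shares. With genes at 0 in both WT libraries set to their bound, the medians of the chemokine (0.07), cytokine (−0.01) and elongation (1.08) lists were as before.

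**Figure D5:**
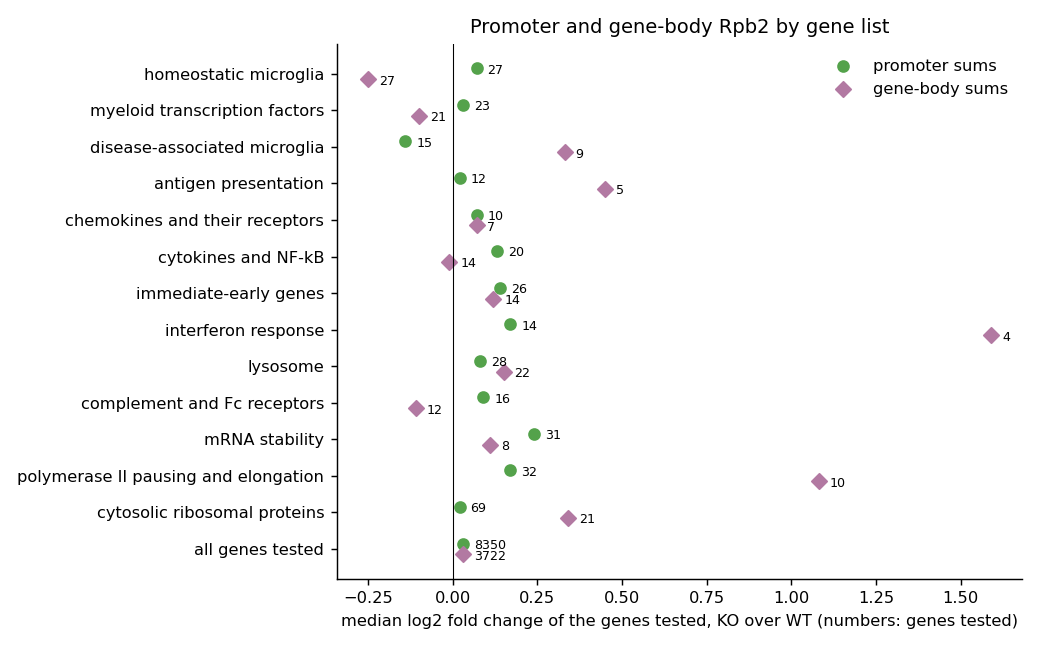
Median fitted log2 fold change, KO over WT (horizontal axis), of the tested genes of each list, with circles for promoter sums and diamonds for gene-body sums; the numbers are genes tested and the last row is all genes. Homeostatic microglia genes lie at −0.25 in gene bodies and 0.07 at promoters, and lists of few gene-body sums, such as the 4 interferon genes at 1.59, lie farthest out.

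Levels between genes were compared per kb of peak. The promoters with the most WT reads per kb included Rnu11, a small RNA of the minor spliceosome, the nuclear long noncoding RNA Malat1, Snord118, the histone gene H3f3b, Txnip and Rhob. Malat1 had 4678 and 4761 CPM per kb in WT against 5840 and 5758 in KO, with log2 KO/WT at 0.30 (SE 0.13, edgeR adjusted p = 0.449).

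The gene-body sums with the most WT reads per kb were those of Tex14, Wdr62, Batf, Vwf, Gpsm3, Gtf2a1, Arid1b and Mir7021. Tex14, a gene known from germ cells, ranked the first of 3722 in both genotypes, with 4581 and 4310 CPM per kb in WT against 3825 and 3597 in KO (log2 KO/WT −0.26, SE 0.08). The Wdr62 peak lies in Thap8, the Gpsm3 peak in Notch4 and the Mir7021 peak in Prdm2, so these levels belong to places in other genes. Gpsm3 shows how far libraries of 1 genotype can differ, with 1595 and 3517 CPM per kb in WT.

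The largest gene-body sums before division by length, named after their values were seen, included those of known microglial genes. The sum named after Mir6983 stands for other genes, since its peaks lie in Csf1r and Hmgxb3. The sum named after Ifitm10 held 2044, 2524, 8138 and 3492 reads over 20 peaks in Ifitm10 and Ctsd (log2 KO/WT −0.33, SE 0.09, edgeR adjusted p = 0.166), and it was −0.36 when summed by transcript. Summed by the transcript they lie in, the 19 gene-body peaks of Csf1r held 2157, 2461, 8355 and 3879 reads, with log2 KO/WT at −0.26 (SE 0.08, edgeR adjusted p = 0.144), and the 12 of Ctsd gave −0.21 (SE 0.12, adjusted p = 0.443). With that way of summing, Cx3cr1 was at −0.38 (SE 0.09, adjusted p = 0.119).

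Markers of other cells were nearly absent from the Rpb2 peaks. None of 8 neuronal, 7 astrocyte and 8 lymphocyte markers had a promoter or gene-body sum. Of 8 oligodendrocyte markers, Mbp, Mag and Cnp had one, and Cnp, which other cells also express, was the highest with 293, 331, 992 and 355 reads. Of the endothelial markers Pecam1 and Flt1 had a sum, of the neutrophil markers Ngp, of the monocyte markers Plac8, and of the markers of border-associated macrophages Cbr2 and Stab1, while the defining markers Mrc1, Lyve1, Ly6c2, Ccr2, S100a8, Cldn5 and Olig2 had no peak. Stab1 was the largest of these, with 500, 774, 2338 and 940 reads over its promoter and gene body. At promoters its sums were 197 and 252 CPM in WT against 155 and 125 CPM in KO (−0.68, SE 0.28), lower in both KO libraries, and in gene bodies 1035, 1375, 1191 and 1036 CPM, which overlap. Cnp was lower in KO at the promoter too, with 193 and 195 against 126 and 121 CPM (−0.65, SE 0.29). Summed over each list, the promoters of the oligodendrocyte markers, all from Mbp and Cnp, were at 333 and 242 CPM in WT against 190 and 150 CPM in KO. The gene-body sums were at 728, 770, 837 and 667 CPM for that list and at 1130, 1527, 1301 and 1248 CPM for the border-associated macrophage markers, with overlapping genotypes. The part of such cells in the differences above was not tested.

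H3K27ac, the histone mark of active promoters and enhancers, was read at the leading promoters as a second measure. An H3K27ac peak overlapped a promoter Rpb2 peak for 8229 of the 8350 genes (98.6%). In H3K27ac CPM, Tnf had 50.0 and 60.2 in WT against 59.7 and 80.3 in KO, which overlap. Klhl42 had 16.1, 10.3, 10.4 and 14.8, Auh had 7.74, 20.7, 12.5 and 15.0, and Mtor had 20.2, 16.6, 13.7 and 17.3, so these promoters separated the genotypes by Rpb2 but overlapped in H3K27ac. Nccrp1 was higher in KO in both measures, with 12.5 and 9.56 in WT against 13.9 and 16.5 in KO. Cx3cr1 was lower in KO in both measures, with 1128 and 1664 in WT against 990 and 1033 in KO. Spag4 did not overlap either, in the direction opposite to its Rpb2 sum, with 13.7 and 6.27 in WT against 2.84 and 3.88 in KO. How many of all promoters do not overlap in H3K27ac was not counted. For Rpb2, 21.5% of promoter sums lay above WT in both KO libraries and 19.5% lay below. The H3K27ac library labelled WT female had 15.9% of its reads in peaks against 61.1% to 65.3% in the other three, so its values carry more background.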

How the data were processed

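Chromatin from sorted, fixed microglia was immunoprecipitated for Rpb2 and sequenced. Per the labels and the study's methods, the authors aligned reads to mm10 with Bowtie2 and found and annotated peaks with HOMER, and they deposited raw read counts per peak and library, with peaks named after the nearest TSS. No normalization is in these counts, and 0 columns of per-sample values were left unused. The H3K27ac counts have the same form.

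Peak counts were summed per gene, apart for peaks within 1000 bp of the TSS and for gene-body peaks beyond it. A gene stayed if either genotype averaged 4 reads or more, which removed 0. The sums went into edgeR 4.0.16 under R 4.3.3 (TMM, quasi-likelihood F-test, genotype alone, Benjamini-Hochberg over all genes), and the gene body relative to the promoter by an interaction term. TMM factors were 0.997 to 1.00 for promoters and 0.977 to 1.03 for gene bodies. Labels do not say that the 2 libraries of a genotype are independent experiments beyond different pools of animals, so p-values measure the spread between them. Exact permutation tests, counting intervals and tables used Python 3.11.15 with NumPy 2.4.6, pandas 2.3.3 and SciPy 1.17.1, and plots matplotlib 3.10.9.

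Named genes were, in each test, the 4 with the lowest p in each direction, the 8 promoters and 8 gene bodies with the most WT reads per kb, Cx3cr1, Klhl42, Auh and Tnf, and up to 4 members of each of 21 gene lists with the highest promoter counts. Results of some genes that this rule picks are not reported here. The members and lists were chosen with earlier results of these data known. On simulated counts with known changes, genes changed 4-fold were recovered for 177 of 200 in 8350 promoter sums (8 false calls), 148 of 199 in 3721 gene-body sums (12 false calls) and 89 of 200 in 2544 genes for the interaction (0 false calls). The simulation gave all genes of a test 1 common spread and drew promoter and gene-body counts apart. Genes may differ in spread, and whether these shares hold for the real counts was not tested. There, the promoters of Auh (log2 KO/WT −3.82) and Mtor (5.72) had fitted changes beyond 4-fold. Neither was called (edgeR adjusted p = 0.196 each). Alternatives were DESeq2 1.42.0, other scaling, filters and peak choices, leaving out each library, and the sex label as a block; summing by host transcript was added after the data were seen.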

Additional observations from a re-analysis of the deposited data

Results flagged for a closer look

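For 3 promoter sums of the named genes, the KO to WT log2 ratio had opposite signs in the libraries labelled female and in the male libraries. Tlr7 was at −0.32 in the libraries labelled female and 0.35 in the male libraries, Dctpp1 at 0.83 and −0.13, and Fam117b at −0.05 and 0.11. With 1 library per genotype and sex the difference between the ratios was not tested, and the WT library labelled female holds Y-linked reads, so these are not shown to be differences between the sexes.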

How the results depend on the processing

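The counts of genes called at an adjusted p under 0.05, 0 in each of the 3 edgeR tests, depended on the tool and on single libraries. For promoters, DESeq2 called 16 genes, edgeR's newer quasi-likelihood method 3 and the replicate block 33 (4 higher, 29 lower). For gene bodies, DESeq2 called 201, the newer method 13, and total reads in place of TMM 171 (166 higher, 5 lower), while the block called 0. For the gene body relative to the promoter, DESeq2 called 69, the newer method 2, at least 10 reads in every library 4, peaks of both lists only 4 and the block 54 (40 toward the gene body, 14 toward the promoter). Leaving out each library in turn gave 1 to 176 promoter genes, 0 to 390 gene-body genes and 0 to 240 for the relative test; leaving out a WT library gave the high counts, and the lone WT library is then assumed to vary like the others. No filter, autosomes alone, the highest promoter peak, peaks near the TSS counted in, and summing within or by the host transcript left the counts they apply to at 0. The gene-body share difference of 2.62 points was 0.475 with peaks of both lists only, and 2.26 to 2.97 with a library left out. The cause of these shifts was not tested.

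The shared labels mark sex and the pools are different animals. Deviations of same-sex libraries correlated at −0.00697 for promoters and −0.0300 for gene bodies, so the numbers do not pair the libraries and the block only shares a number. Of 29 named results, 22 passed with DESeq2, 12 with the block, 6 with the newer method and 5 with total reads. Over all genes, DESeq2 called 16 of 8350 promoter sums, 201 of 3722 gene-body sums and 69 of 2544 in the relative test. Many of the named results were chosen for a low p in these same counts, so their passing with another method is no independent support.

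Total reads moved the median log2 fold change from 0.03 to 0.21 for promoters, from 0.03 to 0.50 for gene bodies and from 0.06 to 0.32 for the relative test. With it the gene-body values of Cx3cr1 (0.08), Tex14 (0.21), Mir6983 (0.23), Ifitm10 (0.13) and Vsir (0.15) and the relative value of Cx3cr1 (0.19) turned positive. With peaks of both lists only, so did Tex14 (0.02), Mir6983 (0.10) and Ifitm10 (0.11). With peaks near the TSS Eloa was at −0.20. With a library left out, the Cx3cr1 relative value ran from −0.19 to 0.06. Relative to the moved median, Cx3cr1, Tex14, Mir6983, Ifitm10 and Vsir stayed below it in gene bodies.

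A floor of 3 reads over the WT libraries is 4.10 CPM for gene-body sums and 1.77 CPM for promoter sums. These differ because CPM is scaled to the reads of each region, so they do not compare the depth of the regions.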
